A study of Mus musculus with 6 samples.

Results

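The 50 genes described here encode the working parts of the lysosome: 10 cathepsins and related peptidases, 7 glycosidases, 7 proteins of lipid handling, 8 membrane proteins, 16 subunits of the proton pump and the transcription factors Tfeb and Tfe3. They were taken by symbol from a table of 22969 gene identifiers, and each member matched 1 identifier. The libraries were made from hematopoietic stem cells of adult C57BL/6 mouse bone marrow, sorted as LSK CD150+ CD48- cells, with about 500 cells in each. There were 3 libraries from Vav1-cre; Rbfox2-fl/fl mice, in which Cre under Vav1 control recombines the floxed gene in blood cells, and 3 from Rbfox2-fl/fl mice without Cre. All 6 mice thus carried the floxed alleles, and age beyond adult and sex are not given in the labels. The libraries labelled Rbfox2-deleted are called Mut1, Mut2 and Mut3 below, and the controls Ctrl1, Ctrl2 and Ctrl3.

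The lysosome is the acid compartment in which cells break down protein, sugar chains and lipid. The vacuolar ATPase, or V-ATPase, pumps protons into it, through a membrane sector V0 driven by a cytosolic sector V1 that splits ATP. Soluble hydrolases work at that low pH, and heavily glycosylated membrane proteins line the inside of the membrane. Tfeb and Tfe3 are transcription factors that switch on many lysosome genes when they enter the nucleus. In quiescent blood stem cells lysosomes are known to be large and slow in degradation, and the series is about protein homeostasis in these cells.

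Total counts were between 23474895 and 35650284 in the libraries labelled Rbfox2-deleted and between 47895459 and 55151484 in the controls. Ctrl1 and Ctrl3 were nearly identical, with a chi-square over its degrees of freedom of 3.44, where the other pairs of libraries had 156 to 808. That is above counting noise alone but far below the difference between any other replicates, so they were summed and counted as 1 sample. The comparison therefore set 3 samples against 2. Mut1 stood apart on the first principal component, at 318.7 against -88.3 to -72.1 for the other 4 samples. Rbfox2, the targeted gene, had 2, 87 and 10 counts in Mut1, Mut2 and Mut3, against 238, 11 and 250 in Ctrl1, Ctrl2 and Ctrl3. Mut2 was thus above Ctrl2, so the reads went against the labels of those libraries, and every direction below rests on the labels. Read counts of Xist and Eif2s3y marked Mut1 and Mut3 as female and the other 4 libraries as male. Of the gate markers, Kit had between 79.3 and 179 CPM, Ly6a, which encodes Sca-1, between 311 and 874, Slamf1, which encodes CD150, between 10.7 and 51.6, and Cd48 at most 0.0771. CPM are read counts scaled to a common library size, with TMM factors. Fewer cells of a kind and less RNA per cell cannot be told apart in such bulk libraries.

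Most hydrolases of the lysosome had higher values in the libraries labelled Rbfox2-deleted. The membrane proteins and the proton pump were divided, with 5 of 8 and 9 of 16 genes above control. Those shares were 62.5% and 56.2%, against 53.5% of all genes. None of the 50 genes passed the test over the whole table (edgeR quasi-likelihood, Benjamini-Hochberg adjusted p between 0.387 and 0.999), and 0% of the 12350 genes tested did. Of the 50 members, all tested, 34 lay above control and 16 below, or 68.0% above against 53.5% of all genes. The median log2 fold change of the members was 0.76, beside 0.11 over all genes. At an unadjusted p under 0.05, 11 members were higher, 22.0% of them against 5.33% of all genes. At the same level 2 were lower, 4% against 4.56% of all genes. The samples of the groups did not overlap for 19 members with higher values, 38.0% against 14.9% of all genes, and for 4 with lower values, 8% against 17.2%. DESeq2 on the same samples called 4 members higher, Ctsb, Ctsc, Asah1 and Lamp2, or 8% of members against 1.67% of its 14137 genes, and 0 lower, against 1.70%. Of all its genes DESeq2 called 3.37% in either direction. limma-voom called 0 members. Before adjustment, p was under 0.05 for 12 members with higher values, against 6.12% of all genes, and for 3 with lower values, against 7.53%.

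Another scaling moved the median of all genes, to -0.20 with upper quartile factors and 0.21 with library totals, and the median of the members stood 0.65 above that of all genes with TMM, 0.68 with upper quartile factors and 0.70 with library totals. The counts depended on single libraries. Without Mut1, 18 members passed this level with higher and 7 with lower values, against 11.8% and 11.9% of all genes, and these held all 11 and both of those found with Mut1. Without Ctrl2, 3 members were higher and 0 lower, against 1.01% and 2.49% of all genes. Without both Ctrl1 and Ctrl3, 6 were higher and 2 lower, against 1.58% and 2.69%. Without Mut2, 9 were higher and 1 lower, against 3.65% and 3.8%, and without Mut3, 8 and 3, against 4.3% and 4.91%. Without both Mut2 and Ctrl2, the libraries whose Rbfox2 counts went against their labels, 0 were higher and 0 lower, against 0.943% and 0.092% of all genes, and 32 of 50 still lay above control. With upper quartile scaling the split was 6 higher and 7 lower, against 2.74% and 8.8%, and it was 8 and 0 with a correction for GC content, against 3.8% and 1.73%.

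**Figure D1:**
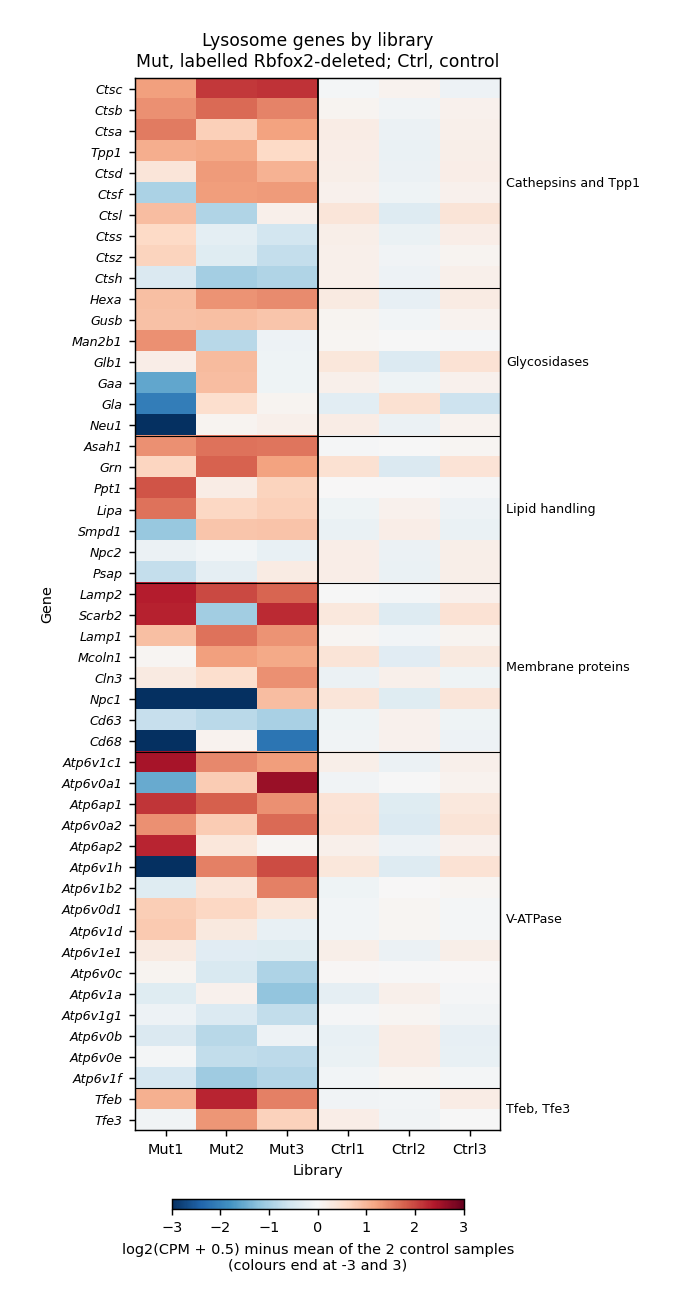
Lysosome genes (rows, by class) in each library (columns); colour is log2(CPM + 0.5) minus the mean of the 2 control samples, red higher and blue lower. The controls are centred on their own mean and Ctrl1 and Ctrl3 are nearly identical, so their even colour is partly built in. Mut1, Mut2 and Mut3 share high values for Ctsb, Ctsc, Asah1, Lamp1, Lamp2 and Atp6ap1, and Mut1 alone is far below control for Neu1 and Atp6v1h.

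Cathepsins, the proteases of the lysosome, lay mostly above control. Of the 10 genes of this class, 8 (6 with upper quartile factors) were above and 2 below, with a median log2 fold change of 0.88, and the groups did not overlap for 5 with higher values and 1 with lower. Ctsb, a cysteine protease abundant in most cells, had 359, 450 and 388 CPM in Mut1, Mut2 and Mut3, against 146, 129 and 150 in Ctrl1, Ctrl2 and Ctrl3. Each of the 3 libraries labelled Rbfox2-deleted was above every control for this gene. It averaged 399 ± 46.8 CPM over Mut1, Mut2 and Mut3 (SD, n = 3) and 139 ± 13.3 CPM in controls (SD, n = 2), a log2 fold change of 1.52 (SE 0.26, edgeR adjusted p = 0.387, DESeq2 adjusted p = 0.00839). Ctsb is protein coding and lies on mm10 chromosome 14 from 63122462 to 63145923, plus strand. Ctsc, the dipeptidyl peptidase that activates granule serine proteases, had 69.0, 128 and 132 CPM in Mut1, Mut2 and Mut3, against 27.8, 31.5 and 26.1 in the controls. The difference on the log2 scale came to 1.91 (SE 0.49, edgeR adjusted p = 0.387, DESeq2 adjusted p = 0.0380), and Mut1 was the lowest of its group. It lies on chromosome 7 from 88278085 to 88310888, plus strand.

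Ctsa is a serine carboxypeptidase that also shields Glb1 and Neu1 from breakdown. It had 426, 240 and 333 CPM in Mut1, Mut2 and Mut3, against 168, 128 and 162 in the controls. The groups did not overlap, and the log2 difference came to 1.19 (SE 0.34, edgeR adjusted p = 0.387). Ctsd, the main aspartic protease, had 258, 485 and 415 CPM in the same order, against 228, 177 and 229, with Mut1 close to Ctrl1 and Ctrl3. Tpp1, a tripeptidyl peptidase, had 104, 106 and 73.6 CPM, against 55.6, 42.3 and 55.

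Other cathepsins did not share this pattern. Ctsz, a carboxypeptidase and the most abundant of the class per kilobase of transcript, had 510, 249 and 195 CPM in Mut1, Mut2 and Mut3, against 354, 297 and 340 in the controls. Mut1 was above and the other libraries of its group below every control, and the log2 fold change equalled -0.02 (SE 0.44). Ctsl had 253, 71.8 and 150 CPM, against 172, 103 and 175, and Ctss, a protease of antigen processing, had 76.3, 40.8 and 34.1, against 56.2, 43.7 and 57.4. In both, Mut1 was the highest of all samples, and the groups overlapped. Ctsf had 31.1, 145 and 148 CPM, against 65.8, 55.7 and 66.0, with Mut1 the lowest sample. Ctsh, an aminopeptidase, was the 1 cathepsin below control in every library, at 76.6, 51.5 and 55.5 CPM against 117, 93.1 and 117, with a log2 fold change of -0.78 (SE 0.40, edgeR adjusted p = 0.623). Ctsb shares exonic bases with Fdft1, Ctsa with Neurl2 and Pltp, Ctsz with Nelfcd, and Ctsl with an antisense gene and a processed pseudogene. Ctsd, Glb1, Hexa, Grn, Ppt1, Lamp1, Cln3, Npc1, Atp6v0a2, Atp6v0b, Atp6v1e1 and Atp6v1h also share exonic bases with a neighbour. Smart-seq2 keeps no strand, so reads in those stretches cannot be assigned.

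**Figure D2:**
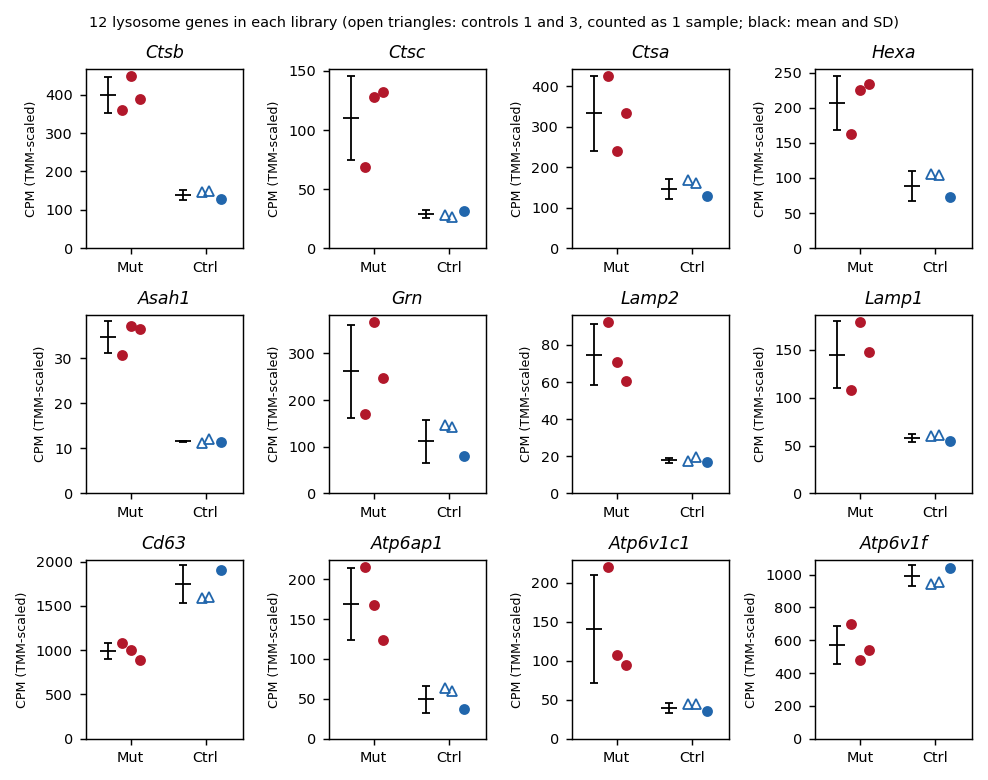
CPM of 12 lysosome genes in each library, libraries labelled Rbfox2-deleted (red) left of controls (blue), with the mean and SD in black (n = 3 and n = 2). Open triangles are Ctrl1 and Ctrl3, counted as 1 sample. The 12 were picked from the members with the smallest p in their class, so panels without overlap reflect that choice. Of all 50 members, the groups do not overlap for 19 with higher and 4 with lower values. Cd63 and Atp6v1f lie below control here and the other 10 above. With a transcript length correction Atp6v1f was at 0.14, beside a median of 0.44 over all genes.

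Among the glycosidases, which trim sugar chains from proteins and lipids, 5 of 7 lay above control with a median log2 fold change of 0.36, and 3 of 7 with upper quartile factors. Only Hexa and Gusb had groups that did not overlap. Hexa, the alpha subunit of hexosaminidase and the gene of Tay-Sachs disease in humans, had 163, 225 and 234 CPM in Mut1, Mut2 and Mut3, against 105, 73.6 and 104 in the controls. This gave a log2 fold change of 1.22 (SE 0.35, edgeR adjusted p = 0.387). It lies on chromosome 9 from 59539540 to 59565109, plus strand. Gusb, the beta-glucuronidase, was even within each group, with 118, 120 and 114 CPM against 67.7, 59.6 and 68.1, and a log2 fold change of 0.88 (SE 0.34, edgeR adjusted p = 0.485). Man2b1, an alpha-mannosidase, had 144, 31.0 and 50 CPM against 57.5, 55.4 and 54.2, so that Mut1 was far above and the other libraries of its group below the controls. Its log2 fold change of 0.44 (SE 0.72) became -0.47 without Mut1.

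The sialidase Neu1 had 1.82 CPM in Mut1, 32.2 in Mut2 and 34.1 in Mut3, against 35.9, 27.1 and 32.7 in the controls, so that Mut1 alone was low. Gaa, the acid alpha-glucosidase, had 11.1, 64.4 and 30.8 CPM against 37.1, 30.5 and 36.9, also lowest in Mut1. Glb1, the beta-galactosidase, had 33.9, 57.4 and 26.9 CPM against 37.7, 22.2 and 40.3, and Gla, an alpha-galactosidase, had 0.910, 7.91 and 5.84 against 4.32, 7.71 and 3.40. The class median was -0.03 without Mut2, beside 0.01 over all genes. With upper quartile factors it was -0.01, beside -0.20 over all genes. Relative to the median of all genes the class stood at 0.25 in the reported fit, 0.19 with upper quartile factors and -0.04 without Mut2. The class as a whole thus had no direction that held without Mut2.

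Of the 7 genes of lipid handling, 5 lay above control, with a median log2 fold change of 1.10. Asah1, the acid ceramidase that splits ceramide to sphingosine, had 30.7, 37.2 and 36.6 CPM in Mut1, Mut2 and Mut3, against 11.3, 11.5 and 12.1 in the controls. Its values lay close together within each group and far apart between them. In log2 terms the difference was 1.58 (SE 0.71), with an edgeR adjusted p = 0.551 and a DESeq2 adjusted p = 0.00306. The gene lies on chromosome 8 from 41340197 to 41374773, minus strand. Grn encodes progranulin, a secreted and lysosomal protein cut into granulins. It had 170, 368 and 248 CPM against 147, 80.0 and 143, a log2 fold change of 1.22 (SE 0.45, edgeR adjusted p = 0.467), and Mut1 was just above Ctrl1. Ppt1, which removes palmitate from proteins, had 252, 79.6 and 109 CPM against 68.8, 68.7 and 66.5. The difference on the log2 scale came to 1.11 (SE 0.57, edgeR adjusted p = 0.617) with Mut1 and 0.45 without it.

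Lipa, the acid lipase that frees cholesterol from its esters, had 37.3, 18.4 and 19.5 CPM, against 10.7, 12.9 and 10.4. Smpd1, the acid sphingomyelinase, had 7.13, 29.3 and 29.9 CPM against 14.0, 18.7 and 14.1, with Mut1 the lowest. The remaining genes did not separate. Npc2, the soluble carrier of cholesterol and the most abundant gene of the class per kilobase, had 303, 323 and 292 CPM against 388, 301 and 381, a log2 fold change of -0.16 (SE 0.24). Psap, the precursor of the saposins that help the sphingolipid hydrolases, had 56.1, 76.4 and 110 CPM against 106, 80.9 and 105.

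**Figure D3:**
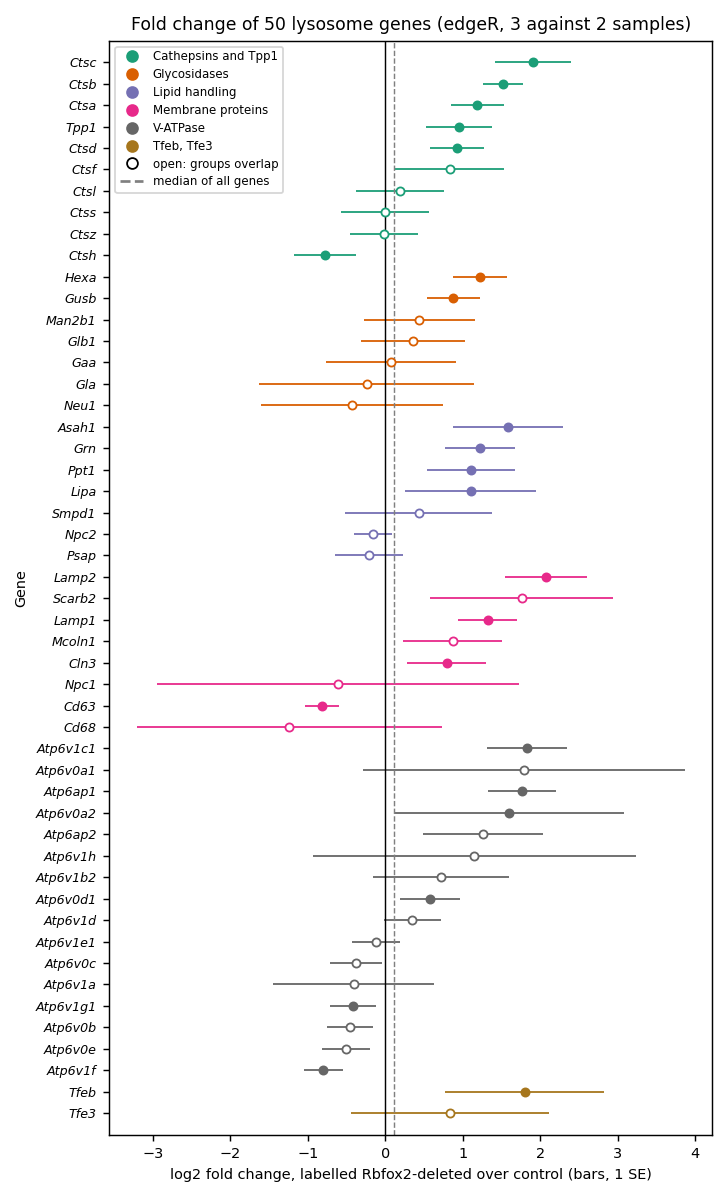
Log2 fold change of each lysosome gene, libraries labelled Rbfox2-deleted over control, with 1 SE; filled points have groups that do not overlap, and the dashed line is the median of all genes, 0.11. Cathepsin and lipid genes lie mostly to the right, while V-ATPase genes spread from 1.83 for Atp6v1c1 to -0.80 for Atp6v1f.

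Of the 8 membrane proteins, 5 lay above and 3 below control, with a median log2 fold change of 0.83. That median was 0.29 with sex as a covariate, a fit that rests on Mut2 alone against the controls. The 8 genes included the largest fold change of the 50, and 1 abundant gene below control. Lamp2, a glycoprotein of the lysosomal membrane that serves as receptor in chaperone-mediated autophagy, had 92.5, 70.9 and 60.6 CPM in Mut1, Mut2 and Mut3, against 17.5, 16.9 and 19.5 in the controls. The lowest library labelled Rbfox2-deleted was well above the highest control. This gave a log2 fold change of 2.07 (SE 0.53), with an edgeR adjusted p = 0.387 and a DESeq2 adjusted p = 0.00253. The gene lies on chromosome X from 38401357 to 38456454, minus strand. Its relative Lamp1 had 108, 179 and 148 CPM against 60.3, 55 and 61.4, a log2 fold change of 1.32 (SE 0.38, edgeR adjusted p = 0.387). It lies on chromosome 8 from 13159161 to 13175338, plus strand.

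Cd63, a tetraspanin of late endosomes and secreted vesicles, went the other way. It had 1082, 997 and 893 CPM in Mut1, Mut2 and Mut3, against 1591, 1902 and 1603 in the controls. In log2 terms the difference was -0.82 (SE 0.22, edgeR adjusted p = 0.387), and each library labelled Rbfox2-deleted was below every control. It lies on chromosome 10 from 128900989 to 128912822, plus strand, and an annotated pseudogene of it, Cd63-ps, could share reads. With 447 CPM per kilobase it was far more abundant than the other membrane proteins, so the summed CPM of the 8 genes followed it.

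Cln3, the membrane protein mutated in a childhood form of Batten disease, had 60.6, 71.1 and 130 CPM against 44.4, 55.7 and 45.5. Mcoln1, the calcium channel of the lysosome, had 28.8, 65.6 and 61.1 CPM against 35.9, 21.7 and 34.0, so that Mut1 lay among the controls. Scarb2, the carrier of glucocerebrosidase to the lysosome, had 51.6, 4.54 and 48.6 CPM against 12.5, 7.52 and 13.6, with Mut2 the lowest sample. Cd68, a glycoprotein abundant in macrophages, had 0 CPM in Mut1, 45.3 in Mut2 and 8.84 in Mut3, against 39.1, 46.6 and 38.1. Npc1, the membrane partner of Npc2, had 1, 1 and 327 counts in Mut1, Mut2 and Mut3, against 268, 150 and 308 in the controls. For these last 3 genes the spread among the libraries labelled Rbfox2-deleted was far wider than among the controls.

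The subunits of the V-ATPase did not share a direction. Of its 16 genes, 9 lay above and 7 below control, with a median log2 fold change of 0.46, which was 0.13 without Mut1 and 0.04 without Mut3. The accessory subunits Atp6ap1 and Atp6ap2, which assemble and target the pump, both lay above control. Atp6ap1 had 215, 167 and 124 CPM in Mut1, Mut2 and Mut3, against 63.6, 37.4 and 59.8 in the controls. Its groups were well apart, with a log2 fold change of 1.77 (SE 0.44, edgeR adjusted p = 0.387), and it lies on chromosome X from 74297097 to 74304721, plus strand. Atp6ap2, also known as the prorenin receptor, had 198, 51.6 and 42.2 CPM against 44.9, 36.4 and 44.5. The log2 fold change of 1.26 (SE 0.78) was 0.20 without Mut1.

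Of the 8 subunits of the V1 sector, 4 lay above and 4 below control. Atp6v1c1, a subunit at the joint of V1 and V0 that controls their assembly, had 220, 108 and 94.7 CPM in Mut1, Mut2 and Mut3, against 45.0, 35.2 and 44.0. The difference on the log2 scale came to 1.83 (SE 0.52, edgeR adjusted p = 0.387). It lies on chromosome 15 from 38661933 to 38692446, plus strand. Atp6v1f, a small subunit of the central stalk and the most abundant member per kilobase, had 696, 477 and 542 CPM against 940, 1040 and 954. This gave a log2 fold change of -0.80 (SE 0.25, edgeR adjusted p = 0.398), and it lies on chromosome 6 from 29467718 to 29470512, plus strand. Atp6v1g1, of the peripheral stalk, also lay below every control, at 179, 149 and 119 CPM against 194, 209 and 186.

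The catalytic subunit Atp6v1a had 8.24, 11.7 and 4.45 CPM, against 8.88, 11.9 and 10.4. Its partner Atp6v1b2 had 12.9, 21.7 and 48.6 CPM against 15.4, 17.0 and 17.6. Atp6v1h had 0 CPM in Mut1, 51.9 in Mut2 and 71.0 in Mut3, against 22.7, 13.4 and 24.3. Atp6v1d had 284, 202 and 141 CPM against 154, 172 and 158, and Atp6v1e1 had 346, 224 and 222 against 321, 254 and 321. None of these 5 genes separated the groups.

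The V0 sector was split in the same way, with 3 of 6 subunits above control. Atp6v0e, a small membrane subunit, had 986, 617 and 601 CPM in Mut1, Mut2 and Mut3, against 894, 1197 and 890. In log2 terms the difference was -0.51 (SE 0.31, edgeR adjusted p = 0.708) with Mut1 and -0.79 without it. With the GC correction it was 0.11, beside a median of 0.46 over all genes. Atp6v0b and Atp6v0c form the proton-carrying ring. Atp6v0b had 384, 291 and 465 CPM against 445, 607 and 435, and Atp6v0c, which has annotated processed pseudogenes, had 351, 243 and 174 against 341, 328 and 333. Atp6v0d1, which caps the ring, had 101, 93.5 and 76.7 CPM against 57.3, 63.5 and 58.6, and did not overlap between groups. The large a subunits line the proton path, and those among the members were scarce. Another a subunit, Tcirg1, is not a member and was less scarce. It had 31.5, 53.1 and 55.5 CPM in Mut1, Mut2 and Mut3, against 18.2, 20.2 and 16.2 in the controls. Its groups did not overlap, with a log2 fold change of 1.32 (SE 0.63, edgeR adjusted p = 0.591). Atp6v0a2 had 3.59, 2.15 and 4.60 CPM against 1.61, 0.686 and 1.55, and Atp6v0a1 had 0.0505, 2.13 and 8.82 against 0.952, 1.04 and 1.19.

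Within the pump, the 6 most abundant subunits were below control, as was the scarce Atp6v1a. The 7 V-ATPase genes below control had a median level of 149 CPM per kilobase, and the 9 above control 20.4. Across the 16 genes, the fold change and the log2 level had a Spearman correlation of -0.74 and a Pearson correlation of -0.65. With the length of the longest transcript the Spearman correlation was 0.57, and the median length was 3667 bases for the genes above control and 2567 for those below. The 16 genes share the same libraries and are not independent, and the longest transcript need not be the one expressed. Across all 12328 genes with a length, the Spearman correlations were 0.11 with level and 0.01 with length. A correction of each library for transcript length gave Atp6v1f a log2 fold change of 0.14 and put 41 of the 50 members above control, with 6 higher and 0 lower before adjustment at 0.05, against 2.83% and 1.78% of all genes. The median of the members was then 0.90, beside 0.44 over all genes. The part of length or level in the split was not tested further.

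**Figure D4:**
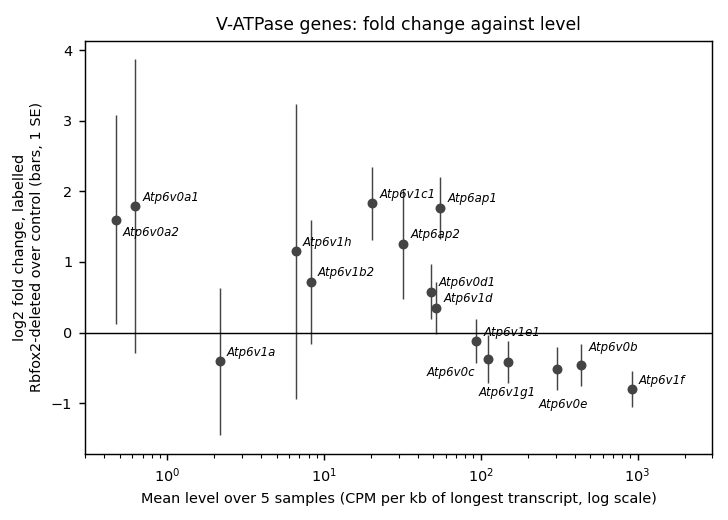
Log2 fold change of the 16 V-ATPase genes (libraries labelled Rbfox2-deleted over control, with 1 SE) against their mean level in CPM per kilobase on a log scale. Atp6v1f, Atp6v0b, Atp6v0e, Atp6v1g1, Atp6v0c and Atp6v1e1, the most abundant, lie below 0, and Atp6ap1, Atp6v1c1 and Atp6ap2 lie above 1, as do the scarce Atp6v0a1, Atp6v0a2 and Atp6v1h with wide errors. With a transcript length correction 14 of the 16 lie above 0, but the median of all genes is then 0.44. The median of the 16 stands 0.30 above that of all genes with the correction and 0.35 without it.

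Summed levels also differed by class. The cathepsins and Tpp1 summed to 2162, 1968 and 1923 CPM in Mut1, Mut2 and Mut3, against 1390, 1101 and 1377 in Ctrl1, Ctrl2 and Ctrl3. The glycosidases summed to 473, 538 and 496 CPM against 345, 276 and 339, and the lipid genes to 857, 932 and 846 against 745, 574 and 733. In each of these classes every library labelled Rbfox2-deleted was above every control. For the lipid genes this rested on Grn, and for the glycosidases on Hexa and Gusb. Without those genes the sums of the groups overlap. The membrane proteins summed to 1423, 1433 and 1359 CPM against 1806, 2109 and 1821, and without Cd63 to 342, 436 and 466 against 215, 207 and 218. The direction of that class therefore depended on Cd63. The V-ATPase summed to 3985, 2713 and 2741 CPM against 3549, 4024 and 3539, with Mut1 among the controls. All 50 genes together averaged 7973 ± 824 CPM over Mut1, Mut2 and Mut3 (SD, n = 3) and 7961 ± 185 CPM in controls (SD, n = 2). The means were close, but Mut1, at 8914 CPM, was above every control. Mut2 and Mut3, at 7619 and 7385 CPM, were below every control. Without TMM factors, the 50 genes held 0.751, 0.824 and 0.861% of the counts in Mut1, Mut2 and Mut3. In Ctrl1, Ctrl2 and Ctrl3 they held 0.791, 0.754 and 0.789%.

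**Figure D5:**
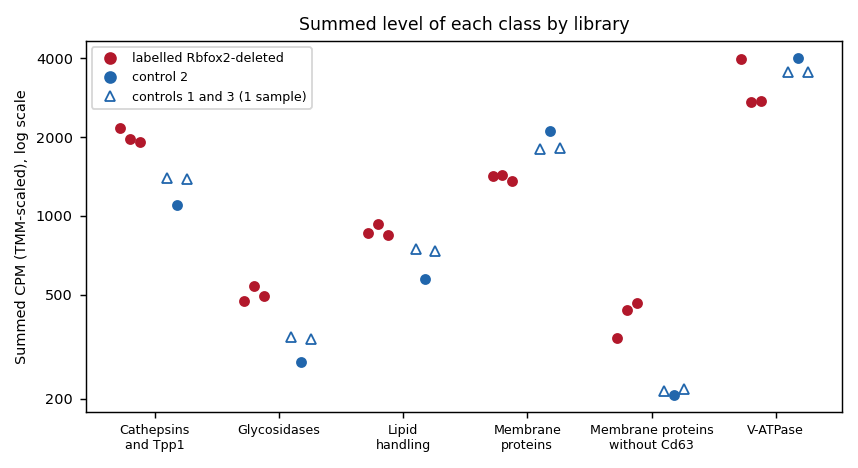
Summed CPM of each class in each library on a log scale, libraries labelled Rbfox2-deleted (red) left of controls (blue; open triangles are Ctrl1 and Ctrl3, counted as 1 sample). Cathepsins, glycosidases and lipid genes lie above control in every library labelled Rbfox2-deleted, and membrane proteins do so only without Cd63. The lipid sums overlap without Grn, and the glycosidase sums without Hexa and Gusb.

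Tfeb had 10.7, 25.5 and 14.6 CPM in Mut1, Mut2 and Mut3, against 4.43, 4.57 and 5.71 in the controls. The groups did not overlap, and the log2 difference came to 1.80 (SE 1.03, edgeR adjusted p = 0.677, DESeq2 adjusted p = 0.123). Tfeb lies on chromosome 17 from 47737030 to 47792419, plus strand. Tfe3 had 2.98, 8.85 and 5.53 CPM against 3.83, 3.01 and 3.23, a log2 fold change of 0.83 (SE 1.28, edgeR adjusted p = 0.940). These factors are controlled mainly by where the protein sits in the cell, which RNA levels do not show.

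Tfeb and Tfe3 bind a palindrome known as the CLEAR element, whose core is TCACGTGA, and the promoters of the members were searched for it. RefSeq promoters of GRCm38.p6, from 250 bases before to 50 after each start, were matched for 41 of the 50 members. The 8 bases were found in 8 of these, 19.5%, against 1.12% of 27025 genes in the same table. The shorter palindrome CACGTG, which every such match contains, was found in 14 members, 34.1% against 8.09%. Each word reads the same on both strands. The 8 members with the longer word were Ctsa, Ctsd, Gla, Cln3, Mcoln1, Atp6v0d1, Atp6v0e and Atp6v1a. Of these, 5 lay above control with a median log2 fold change of 0.69, and of the 33 matched members without it, 22 lay above, with a median of 0.44. For the shorter word the order was the opposite, with 10 of 14 above and a median of 0.47 where it was found, and 17 of 27 above and a median of 0.83 where it was not. The word thus occurred in members above and below control, and a match does not show that a factor binds there. The windows given here are those of 4 hydrolase or membrane genes above control and of 1 pump gene below it. Each reads 5′ to 3′ on the strand of the gene, with TCACGTGA in capitals.
Ctsa (chr2:164833749-164833778, plus strand, 13 bases before the start): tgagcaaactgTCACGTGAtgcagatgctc
Ctsd (chr7:142387893-142387952, minus strand, 99 bases before the start): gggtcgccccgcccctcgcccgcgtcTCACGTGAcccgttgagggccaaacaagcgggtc
Cln3 (chr7:126583325-126583384, minus strand, 122 bases before the start): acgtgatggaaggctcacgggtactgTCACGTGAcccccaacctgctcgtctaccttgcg
Mcoln1 (chr8:3500447-3500506, plus strand, 46 bases before the start): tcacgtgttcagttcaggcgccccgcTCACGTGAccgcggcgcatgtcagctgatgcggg
Atp6v0e (chr17:26676387-26676416, plus strand, from base 3 of the transcript): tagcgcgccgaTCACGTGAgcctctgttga

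Other lysosome genes, from a list of 83 measured genes that are not members, lay above control about as often as the members. They were close to all genes in the share that separated the groups with higher values, but not in the share with lower values. Of 74 tested, 50 lay above and 24 below control, with a median log2 fold change of 0.61, and 0 passed the edgeR test. An unadjusted p under 0.05 was found for 5 with higher values, 6.76% against 5.33% of all genes, and for 2 with lower values, 2.7% against 4.56%. The groups did not overlap for 14 with higher values, 18.9% against 14.9%, and for 5 with lower values, 6.76% against 17.2%. Their median against the mean of the controls was -0.86 in Mut1, 0.82 in Mut2 and 0.53 in Mut3, so Mut1 lay below control here. Above control were 22 of 29 hydrolases and 8 of 16 membrane proteins. M6pr, a receptor that carries hydrolases with a mannose 6-phosphate tag to the lysosome, had 270, 167 and 151 CPM in Mut1, Mut2 and Mut3, against 73.2, 56.1 and 74.3 in the controls, a log2 fold change of 1.59 (SE 0.40, edgeR adjusted p = 0.387). Lamtor5, of the complex that docks mTORC1 on the lysosome, had 386, 293 and 299 CPM against 509, 569 and 528. Its log2 fold change of -0.74 (SE 0.25) was 0.18 with the length correction, beside a median of 0.44 over all genes. In both the groups did not overlap.

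Sex and markers of cell types varied with the groups and are given as values. Of the members, 5 are on the X chromosome. Both female libraries, Mut1 and Mut3, are labelled Rbfox2-deleted, so the fit with sex as a covariate rests on Mut2 alone against the controls. In that fit the log2 fold change equalled 2.0 for Lamp2, 1.76 for Atp6ap1, 0.35 for Atp6ap2 and 1.44 for Tfe3. For Gla it turned to 0.46, against -0.24 without the covariate. These values restate the levels of Mut2, male like the controls. It had 70.9 CPM of Lamp2 and 167 of Atp6ap1, against at most 19.5 and 63.6 in the controls. Macrophages are rich in lysosomes, and the 16 macrophage and monocyte markers summed to 1482, 1409 and 1215 CPM in Mut1, Mut2 and Mut3, against 2104, 1589 and 2104 in the controls. Between 1 and 4 of the 16 were at 0 in each library. Nearly all of the sum was Lyz2, and Csf1r, Adgre1 and Mpeg1 were at most 0.363 CPM in any library. Other macrophage markers were present and did not share a direction. C1qc had 0.0505, 18.1 and 22.4 CPM in Mut1, Mut2 and Mut3, against 17.7, 8.85 and 16.4 in the controls, and Cd14 had 0.0505, 6.35 and 6.09 against 1.63, 4.32 and 1.94. C1qa had 2.58, 1.71 and 0 CPM against 10.8, 4.24 and 10.8, and C1qb had 0.0505, 2.98 and 6.68 against 9.79, 5.98 and 9.07. Of the 8 macrophage markers tested, 5 lay above and 3 below control. The 12 neutrophil markers summed to 535, 413 and 466 CPM against 830, 557 and 805, and 8 measured erythroid markers to 574, 119 and 192 against 119, 182 and 120. The macrophage and neutrophil sums lay below every control in the libraries labelled Rbfox2-deleted. The 6 stroma and endothelium markers ran the other way, with a sum of 38.8, 15.3 and 13.5 CPM against 7.82, 10.3 and 8.81, above every control in each library. Nearly all of that sum was Pecam1, with 37.4, 13.7 and 13 CPM against 6.99, 10 and 7.96. B cell markers summed to 212, 127 and 165 CPM against 323, 226 and 311, and T and NK cell markers to 199, 104 and 108 against 88.1, 118 and 86.3, highest in Mut1. Dendritic cell markers summed to 194, 228 and 249 CPM against 283, 258 and 276, and mast cell and basophil markers to 0, 0.0519 and 8.2 against 8.98, 2.14 and 8.57. Megakaryocyte markers, 8 in number, summed to 52.3, 174 and 247 CPM against 319, 336 and 313. The 10 stem cell markers summed to 1472, 1821 and 1736 CPM against 1423, 1175 and 1421. Each library labelled Rbfox2-deleted was thus above every control for that sum. By log2 fold change, 8 of the 10 lay above control and 2 below. Single genes also held most of other sums, Prtn3 for neutrophils, Cd79b for B cells and Bst2 for dendritic cells. The part of these cells in the lysosome values was not tested.

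Mut1 was the most extreme sample for the members, as for all genes. It was the highest of 5 samples for 16 members and the lowest for 11, or 32.0% and 22.0%, against 28.6% and 40.5% of all genes. It detected 48 of the 50 members, and the other libraries detected all. Ctrl2 was the lowest of 5 samples for 17 members, 34.0% against 17.2% of all genes, among them 14 of the 19 members whose groups did not overlap with higher values. The median of the members against the mean of the controls was 0.32 in Mut1, 0.56 in Mut2 and 0.68 in Mut3, beside -0.45, -0.02 and 0.05 over all genes. The direction of 29 members was the same in the reported fit and its 20 alternatives, with 26 above control and 3, Ctsh, Cd63 and Npc1, below. These fits reuse the same libraries, and the same count over all genes was not made. A direction kept in this sense could still be weak. Npc1 ranged from -7.25 to -0.05 across the fits, and Atp6v0a1 and Atp6v1b2 came down to 0.04 and 0.03.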

How the data were processed

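RNA of about 500 sorted cells per library was made into full-length cDNA by Smart-seq2, which keeps no strand and no molecular identifiers, per the labels' protocols. The authors deposited a table of raw read counts per gene. Per the submitters' processing notes, Trimmomatic 0.39, featureCounts, DESeq2 1.36.0 and mm10 were used; the aligner, annotation and handling of multimapping reads were not given in the sources used here. Of 23043 table lines, 134 share 60 identifiers, none of them a member. Gene positions and lengths are from GENCODE M21 (GRCm38).

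Ctrl1 and Ctrl3 were summed, and 3 samples were compared with 2 in edgeR 4.0.16 (R 4.3.3) by the quasi-likelihood test, with TMM scaling, a minimum count of 10 and a total of 15, and Benjamini-Hochberg adjustment over 12350 genes at 0.05. DESeq2 1.42.0 and limma 3.58.1 (voom) were alternatives. Scripts were tested on simulated data. The members, lists and tests were chosen with earlier results of these data known. The rule for named genes took the members with the smallest p in each class, the most abundant one per kilobase, Tfeb and Tfe3, and the 4 other lysosome genes with the smallest p, of which some are not reported here; the remaining members are given by their values. Per the labels the libraries came from 3 mice per group, and p-values measure the spread between the 5 samples counted. Replicate numbers did not pair the samples. The biological coefficient of variation was 104%, which limits what 5 samples can show.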

Additional observations from a re-analysis of the deposited data

How the results depend on the processing

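The edgeR fits called 0 members and 0 of all genes under every setting run. DESeq2 called 4 members and 2 other lysosome genes, all higher, or 8% of members and 2.7% of the other 74. Of all its genes it called 1.67% higher, and 477, or 3.37%, in either direction. At an unadjusted p under 0.05, the share over all genes was not counted for DESeq2 or for sex as a covariate. Members higher at an unadjusted p under 0.05 numbered 11, and 6 with upper quartile factors, 6 with a transcript length correction, 0 without Mut2 and Ctrl2 (a fit added after seeing the data), and 3 to 18 when 1 sample was left out. Members lower numbered 2, and 7 with upper quartile factors, 1 with DESeq2, 1 with sex as a covariate, 0 with the length correction, 0 with the GC correction, 0 without Mut2 and Ctrl2, and 0 to 7 when 1 sample was left out. The median log2 fold change of the members, 0.76, was 0.48 with upper quartile factors, 0.55 with limma-voom, 0.56 with sex as a covariate, 1.02 with the GC correction, 0.49 without Mut2 and Ctrl2, and 0.54 to 0.74 when 1 sample was left out (0.70 without Ctrl2).

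The cathepsin median, 0.88, was 0.60 with upper quartile factors, 1.01 with library totals, 0.74 with no filter, 0.79 with limma-voom, 1.06 with the length and 1.07 with the GC correction, 0.50 without Mut2 and Ctrl2, and 0.62 to 1.01 when 1 sample was left out. The glycosidase median, 0.36, was -0.01 with upper quartile factors, -0.03 with limma-voom, 0.90 with sex as a covariate, -0.18 without Mut2 and Ctrl2, and -0.03 to 0.57 when 1 sample was left out. The median of the lipid genes, 1.10, was 1.15 with DESeq2 size factors, 0.69 with upper quartile factors, 0.92 with no filter, 0.81 with limma-voom, 0.65 with sex as a covariate, 1.52 with the GC correction, 0.53 without Mut2 and Ctrl2, and 0.68 to 1.24 when 1 sample was left out (0.93 without Ctrl1 and Ctrl3). The V-ATPase median, 0.46, was 0.10 with upper quartile factors, -0.05 with limma-voom, 0.74 with the length and 0.91 with the GC correction, and 0.04 to 0.54 when 1 sample was left out. The median of the membrane proteins, 0.83, was 0.29 with sex as a covariate, 0.55 with upper quartile factors, and 0.55 to 1.06 when 1 sample was left out. The median of all genes moved too, from 0.11 to -0.20 with upper quartile factors, -0.32 with limma-voom and -0.10 with sex as a covariate. It was 0.44 with the length and 0.46 with the GC correction.

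With 6 separate libraries and the replicate number as a block, 0 members were called, and the medians were 0.50 for the members, 0.69 for cathepsins, 0.13 for glycosidases, 0.94 for lipid genes, 0.76 for membrane proteins and 0.26 for the V-ATPase. Deviations of same-numbered libraries correlated at -0.0423, -0.00892 and 0.0491.

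Some genes changed sign. Rbfox2 was at 1.90 without Ctrl1 and Ctrl3. Ctsz was at 0.04 with DESeq2 size factors, 0.01 with Ctrl3 alone for the sum, 0.60 with the length and 0.73 with the GC correction, -0.55 without Mut1, 0.12 without Mut2, 0.23 without Mut3, 0.06 without Ctrl1 and Ctrl3, and 0.02 without Mut2 and Ctrl2. Man2b1 was at -0.01 with upper quartile factors, -0.07 with limma-voom, -0.84 with sex as a covariate and -0.47 without Mut1, against 0.80 without Mut2 and Ctrl2. With the length correction Npc2 was at 0.16, Atp6v1f at 0.14 and Lamtor5 at 0.18, all below the median of all genes, 0.44. With the GC correction Npc2 was at 0.22 and Atp6v0e at 0.11, again below that median, 0.46. The cause was not tested for any of these. Leaving out Ctrl2, or Ctrl1 and Ctrl3, leaves 1 control, which is then assumed to vary like the other group. With sex as a covariate, the difference between groups rests on Mut2 alone against the controls.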
